A study of Mus musculus with 29 samples.

Results

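The genes described here are 10 regulators and surface or matrix components of the mesenchyme that wraps the embryonic brain: Twist1, Prrx1, Prrx2, Pdgfra, Pdgfrb, Foxc1, Foxc2, Foxd1, Tbx18 and Lum. They were taken by symbol from the 25239 genes of the count tables, and all 10 were among the 15383 genes with enough counts to be tested. The study measured poly(A) RNA from brain tissue of mouse embryos at E11.5 (the embryonic day) to compare embryos that lack an enhancer with wild-type embryos. Its 4 RNA-seq groups are wild-type midbrain, midbrain of the hs654 knockout, wild-type forebrain, and forebrain of the hs267-853 knockout. The names beginning with hs are identifiers of enhancers, which are stretches of DNA that raise transcription of genes at a distance. Each group holds 2 libraries, and each library is a pool of dissected tissue from several embryos of one genotype. The strain and the zygosity of the deletions are not given in the sources used here, nor is it stated whether the label hs267-853 stands for 1 deletion or 2. The other 21 samples, which are capture Hi-C, were not analysed here.

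Head mesenchyme comes from the cranial neural crest and from head mesoderm. It lies between the neuroepithelium and the surface ectoderm and gives rise to meninges, skull, dermis, connective tissue and the pericytes of brain vessels. Transcription factors of the bHLH, paired-related homeobox, forkhead and T-box families specify these cells. PDGF receptors on their surface receive PDGF ligands made by ectoderm, neuroepithelium and endothelium. The neuroepithelium itself makes little of most of these transcripts at this stage, although Foxd1 is also known from ventral forebrain and retina.

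The 10 genes lie on 9 chromosomes in RefSeq's table of assembly GRCm38.p6, where Foxc1 and Foxd1 share chromosome 13. RefSeq promoters were used here for 7 of them: Twist1, Prrx1, Prrx2, Pdgfra, Foxc1, Foxd1 and Tbx18. Promoters of Pdgfrb, Foxc2 and Lum were not examined. The 250 bases upstream of the start are shown for 3 genes, chosen because they stood at different points of the tissue difference described below: Twist1 among the members much higher in forebrain, Tbx18 with a small difference, and Foxd1 on the lower side. Each is read 5′ to 3′ on the gene's own strand. Capitals mark the motifs CANNTG (the E-box, bound by bHLH factors), TAAT (a core of homeodomain sites) and TATAAA (a core promoter element), searched on both strands.
Twist1, chr12:33957421-33957670, plus strand: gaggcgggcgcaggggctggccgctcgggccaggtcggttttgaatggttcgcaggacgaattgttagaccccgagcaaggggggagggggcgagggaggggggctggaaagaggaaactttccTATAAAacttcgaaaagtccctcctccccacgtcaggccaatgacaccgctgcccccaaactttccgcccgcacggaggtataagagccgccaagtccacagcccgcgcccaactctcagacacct
Tbx18, chr9:87731261-87731510, minus strand: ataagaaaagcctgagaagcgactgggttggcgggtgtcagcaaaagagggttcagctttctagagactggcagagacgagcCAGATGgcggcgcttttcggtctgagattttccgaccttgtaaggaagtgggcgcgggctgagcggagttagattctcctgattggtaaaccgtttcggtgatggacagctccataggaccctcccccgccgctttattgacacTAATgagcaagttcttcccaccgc
Foxd1, chr13:98353995-98354244, plus strand: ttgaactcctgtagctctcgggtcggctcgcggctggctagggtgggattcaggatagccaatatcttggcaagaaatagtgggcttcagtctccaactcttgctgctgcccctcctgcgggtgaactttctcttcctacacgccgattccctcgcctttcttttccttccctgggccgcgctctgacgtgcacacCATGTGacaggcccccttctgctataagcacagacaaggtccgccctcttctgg

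The E-box letters CANNTG occurred in 3 of the 7 promoters (Pdgfra, Foxd1 and Tbx18) and in 66.2% of 32851 promoter windows of the same length. TAAT occurred in 2 of 7, with 4 matches for Prrx1 and 1 for Tbx18, against 54.9% of all windows. The Prrx1 window holds 1 TAATTA, a palindrome that 4.84% of windows hold and that gives a TAAT match on each strand. TATAAA was found in the window of Twist1 and in 12.4% of all windows. The forkhead letters GTAAACA were in 0 of the 7 windows and in 3.17% of all. The G and C content of the 7 windows ran from 47.6% for Prrx1 to 70.8% for Foxc1. The windows of Prrx1, Prrx2 and Pdgfra lie inside the RefSeq spans of these genes, not upstream of the outermost start. These matches describe letters in a window and do not show binding.

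The 8 libraries held 9051632 to 18024406 counts in genes. The members together took 3691 to 9802 counts per library, or 0.0290% to 0.0659% of it, and the smallest single count was 103, for Prrx2. The midbrain gene En2 matched the tissue labels: it was at 0 in all 4 forebrain libraries and at 130 to 158 CPM (counts per 1000000 counts of the library, on TMM-scaled sizes) in midbrain. The deleted elements are not genes, so the counts gave no check of genotype. In these bulk samples, fewer cells of a type and less RNA per cell cannot be told apart.

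Library by library, the bHLH factor Twist1, which is required in head mesenchyme for closure of the cranial neural tube, stood at 16.5 and 27.8 CPM in midbrain of wild-type embryos and at 26.8 and 22.4 CPM in midbrain of the knockout. Its forebrain levels were 93.3 and 64.9 CPM without the deletion and 36.7 and 61.0 CPM with it. All 4 forebrain libraries thus lay above all 4 midbrain libraries, and knockout pool 1 was the lowest of the forebrain. Pools are given in the order 1 and 2 throughout.

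Prrx1, a paired-related homeobox factor of craniofacial and limb mesenchyme, measured 23.7 and 33.8 CPM in wild-type midbrain, 33.3 and 30.6 CPM in knockout midbrain, 125.9 and 113.7 CPM in wild-type forebrain and 72.1 and 113.6 CPM in knockout forebrain. Its relative Prrx2, which acts partly in its place, measured 8.60 and 14.8, 10.8 and 11.3, 40.7 and 29.1, and 20.1 and 30.8 CPM in the same order of groups. For both genes the tissues did not overlap, wild-type pool 1 was the lowest midbrain library, and knockout pool 1 was the lowest forebrain library.

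Pdgfra, the receptor that marks neural-crest-derived and other mesenchyme, stood at 50.4 and 86.4 CPM in wild-type midbrain and at 71.2 and 74.1 CPM in its knockout. Its forebrain levels were 124.4 and 113.8 CPM in wild-type pools and 70.0 and 110.1 CPM in knockout pools, so that knockout pool 1 of the forebrain fell inside the midbrain range. Pdgfrb, the receptor of pericytes and of perivascular mesenchyme, stood at 39.4 and 43.1, 42.4 and 48.2, 62.3 and 59.98, and 49.3 and 56.7 CPM in the same order of groups. Its 4 forebrain libraries lay above its 4 midbrain libraries.

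Among the forkhead factors, Foxc1, needed for meninges and skull, measured 28.6 and 49.4 CPM in wild-type midbrain and 39.5 and 54.3 CPM in knockout midbrain. Its forebrain levels were 53.8 and 50.0 CPM in wild-type pools and 41.1 and 53.9 CPM in knockout pools, a range that overlaps that of midbrain. Foxc2, its close paralogue, stood at 8.03 and 12.9, 13.9 and 11.6, 12.2 and 8.98, and 10.8 and 7.86 CPM in the order of groups above. Foxd1, a factor of stromal and neural crest mesenchyme, stood at 26.9 and 44.3 CPM in wild-type midbrain and at 37.6 and 41.9 CPM in its knockout, against 28.4 and 29.2 and then 28.9 and 25.5 CPM in forebrain. Midbrain wild-type pool 1 was the one midbrain library of Foxd1 within the forebrain range.

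Foxc1, Foxc2 and Foxd1 are single-exon genes, so their span in RefSeq (3990, 2725 and 2461 bases) gives a level per length. In wild-type midbrain Foxd1 had 14.5 ± 5.01, Foxc1 9.77 ± 3.68 and Foxc2 3.85 ± 1.27 CPM per kilobase (SD, n = 2). In wild-type forebrain the order of the leading pair was the other way round, with 13.0 ± 0.678 for Foxc1, 11.7 ± 0.213 for Foxd1 and 3.89 ± 0.840 CPM per kilobase for Foxc2. Both genes were lower in pool 1 than in pool 2 of wild-type midbrain, which makes these SDs wide. Within each midbrain library, wild-type or knockout, Foxd1 was above Foxc1, as at 10.9 against 7.17 CPM per kilobase in wild-type pool 1. In forebrain Foxc1 was above Foxd1 in each library except knockout pool 1, which had 10.3 for Foxc1 and 11.8 for Foxd1. The difference between these genes was not tested. Foxc2 was lowest in each of the 8 libraries.

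Tbx18, a T-box factor of mural cells and of other mesenchyme, measured 19.5 and 30.5, 26.2 and 28.3, 34.1 and 33.4, and 26.7 and 29.9 CPM. Lum encodes lumican, a leucine-rich proteoglycan that binds collagen fibrils, and measured 67.3 and 78.0, 65.5 and 80.6, 90.1 and 75.8, and 48.9 and 80.5 CPM. Forebrain and midbrain overlapped in both genes when all 8 libraries are taken.

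**Figure D1:**
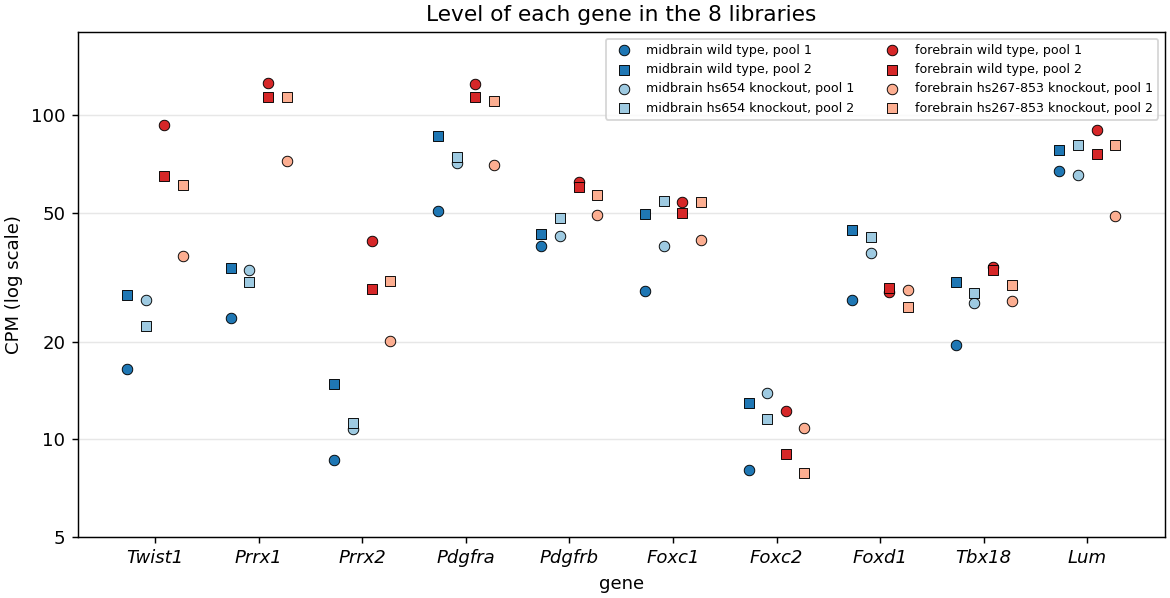
Level of each of the 10 genes in the 8 libraries, in CPM on a log axis; colour gives the group and symbol the pool (circle 1, square 2). Twist1, Prrx1 and Prrx2 separate the red forebrain points from the blue midbrain points, whereas Foxc2, Foxd1 and Lum do not.

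Between the tissues of wild-type embryos, the bHLH and paired-related homeobox factors and both PDGF receptors were higher in forebrain. In the quasi-likelihood test of edgeR, with a threshold of 0.05 on the adjusted p, 5 of 10 members were higher in forebrain (Twist1, Prrx1, Prrx2, Pdgfra and Pdgfrb) and 0 were lower, while 5 did not pass. Over all 15383 genes 14.3% were called higher and 15.3% lower. The median log2 fold change was 0.51 over the members (0.30 without midbrain wild-type pool 1 and 0.83 without midbrain wild-type pool 2), and 9 of 10 were above 0, against 50.1% of all genes. For 7 of 10, the same 5 with Foxc1 and Tbx18, both forebrain libraries lay above both midbrain libraries, where 33.2% of all genes did.

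Prrx1 differed most, at 28.8 ± 7.12 CPM in wild-type midbrain and 119.8 ± 8.63 CPM in wild-type forebrain (SD, n = 2), a log2 difference of 2.07 (SE 0.189) with an edgeR adjusted p of 3.33e-06. Twist1 rose from 22.2 ± 7.98 to 79.1 ± 20.1 CPM, by 1.86 (SE 0.255, edgeR adjusted p = 0.000135), and Prrx2 from 11.7 ± 4.37 to 34.9 ± 8.22 CPM, by 1.60 (SE 0.247, edgeR adjusted p = 0.000346). These factors were 3.03-fold to 4.20-fold higher in forebrain. The receptors differed less: Pdgfra by 0.81 (SE 0.211, edgeR adjusted p = 0.0112) and Pdgfrb by 0.57 (SE 0.0983, edgeR adjusted p = 0.000776).

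For the other members the difference did not pass with all libraries in edgeR. Tbx18 had a log2 difference of 0.44 (95% interval 0.088 to 0.79, edgeR adjusted p = 0.0585) and Foxc1 of 0.43 (-0.029 to 0.88, edgeR adjusted p = 0.151). Lum had 0.20 (-0.19 to 0.58), Foxc2 0.034 (-0.49 to 0.56) and Foxd1 -0.30 (-0.68 to 0.091), with edgeR adjusted p of 0.452, 0.932 and 0.243. Midbrain wild-type pool 1 bears on these calls. Without it the value of Pdgfra was 0.46 (edgeR adjusted p = 0.121), and Foxd1 was called lower in forebrain at -0.63 (0.00577). Without midbrain wild-type pool 2, Foxc1 was called at 0.86 (0.00681) and Tbx18 at 0.79 (0.00166). Both were also called without a filter on low counts (0.000303 and 0.00274) and with a block for the replicate number (0.0401 and 0.0298), and Tbx18 by limma-voom (0.50, adjusted p = 0.0306). Without forebrain wild-type pool 1 Pdgfra was at 0.75 (0.0728).

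The 4 knockout libraries give the same tissue contrast with means from other pools, with tissue and deletion differing together. Both comparisons come from a single fit to all 8 libraries and share its estimate of the spread, so they are not independent. The comparison of knockout libraries was added after the data were seen. In it 4 of 10 members passed in edgeR, 3 higher and 1 lower in forebrain, where 14.6% of all genes were called higher and 14.8% lower. Prrx1 was higher by 1.53 (SE 0.193, edgeR adjusted p = 6.25e-05), Prrx2 by 1.21 (SE 0.260, edgeR adjusted p = 0.00343) and Twist1 by 0.98 (SE 0.262, edgeR adjusted p = 0.0131). Foxd1 was lower, at -0.54 (SE 0.179, edgeR adjusted p = 0.0373). Twist1 and Foxd1 did not pass without midbrain knockout pool 1 (1.10 and -0.64), midbrain knockout pool 2 (0.86 and -0.46) or forebrain knockout pool 2 (0.57 and -0.45), and DESeq2 did not call Twist1 (0.97, adjusted p = 0.0738).

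Pdgfra had 0.31 (SE 0.215, edgeR adjusted p = 0.317) and Pdgfrb 0.23 (SE 0.0998, edgeR adjusted p = 0.107) in the knockout libraries. Pdgfra passed without a filter on low counts (0.30, edgeR adjusted p = 0.00213). Without forebrain knockout pool 1 both passed, at 0.60 (0.0186) for Pdgfra and 0.33 (0.0317) for Pdgfrb. Without forebrain knockout pool 2, Lum was called lower at -0.57 (0.00350), and the value of Pdgfra was -0.050. Foxc2 had -0.44, Lum -0.18, Tbx18 0.054 and Foxc1 0.024, and none of these 4 passed with all libraries.

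**Figure D2:**
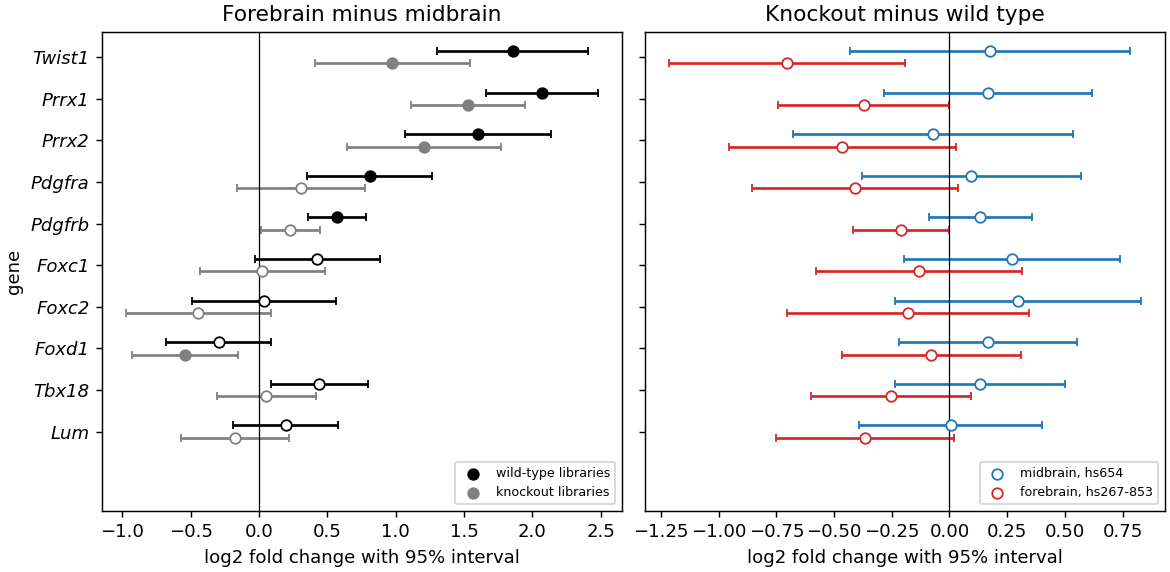
Log2 fold change of each gene with its 95% interval from edgeR; filled points passed an adjusted p of 0.05 and open points did not. On the left, Prrx1, Prrx2 and Twist1 are filled in both the wild-type and the knockout libraries; on the right, all 20 knockout effects are open.

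The hs654 comparison asked whether the members change in midbrain without this enhancer. No change was detected: 0 of 10 passed in edgeR, and 0 of 10 had an unadjusted p under 0.05, against 0% and 3.96% of all genes. DESeq2 and limma-voom also called 0 members. The log2 fold changes ran from -0.070 for Prrx2 to 0.30 for Foxc2, with a median of 0.15. Pdgfrb gave the tightest limit, at 0.13 (95% interval -0.087 to 0.36), and Twist1 a wide one, at 0.18 (-0.43 to 0.78). For all 10 members the wild-type and knockout libraries overlapped, whereas 36.7% of all genes had no overlap.

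The sign of these values rested on single pools. With all libraries 9 of 10 members were above 0, where 49.7% of all genes were. Without midbrain wild-type pool 1, 9 of 10 were below 0 and the median was -0.13. Without midbrain wild-type pool 2, 10 of 10 were above 0 and the median was 0.50. Without midbrain knockout pool 2 the median was 0.072.

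The hs267-853 comparison asked the same in forebrain. No member passed in edgeR (0 of 10; 0.013% of all genes were called), but all 10 had a negative log2 fold change, against 47.4% of all genes, with a median of -0.31. Before adjustment 3 of 10 were below 0.05, where 1.8% of all genes were at that level with a negative value. These were Twist1 at -0.70 (SE 0.236), Prrx1 at -0.37 (SE 0.171) and Pdgfrb at -0.21 (SE 0.0958), and their edgeR adjusted p was 0.981 to 0.984. Prrx2 had -0.46, Pdgfra -0.41, Lum -0.36, Tbx18 -0.25, Foxc2 -0.18, Foxc1 -0.13 and Foxd1 -0.079.

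In 5 of 10 members (Twist1, Prrx1, Pdgfra, Pdgfrb and Tbx18) both knockout libraries lay below both wild-type libraries, where 13.9% of all genes did so. For Prrx1 the margin was small, at 113.6 CPM in knockout pool 2 against 113.7 CPM in wild-type pool 2. Knockout pool 1 carried much of the difference. Without it the median was -0.14, Twist1 was at -0.38, Prrx1 at -0.078, Pdgfra at -0.11 and Lum at -0.044, and 0 members passed. Without knockout pool 2, the median was -0.54 and 4 members passed in edgeR: Twist1 at -1.11 (adjusted p = 0.0138), Prrx1 at -0.73 (0.00781), Pdgfra at -0.77 (0.0476) and Lum at -0.77 (0.00520). That fit rests on 1 knockout library, taken to vary as the other groups do. The same 4 genes also passed in edgeR when no filter on low counts was applied, and 0 members did in DESeq2 or limma-voom. The unfiltered fit called many more genes than the 2 of the main fit, for a cause that was not tested. Its calls are therefore not taken as separate evidence.

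**Figure D3:**
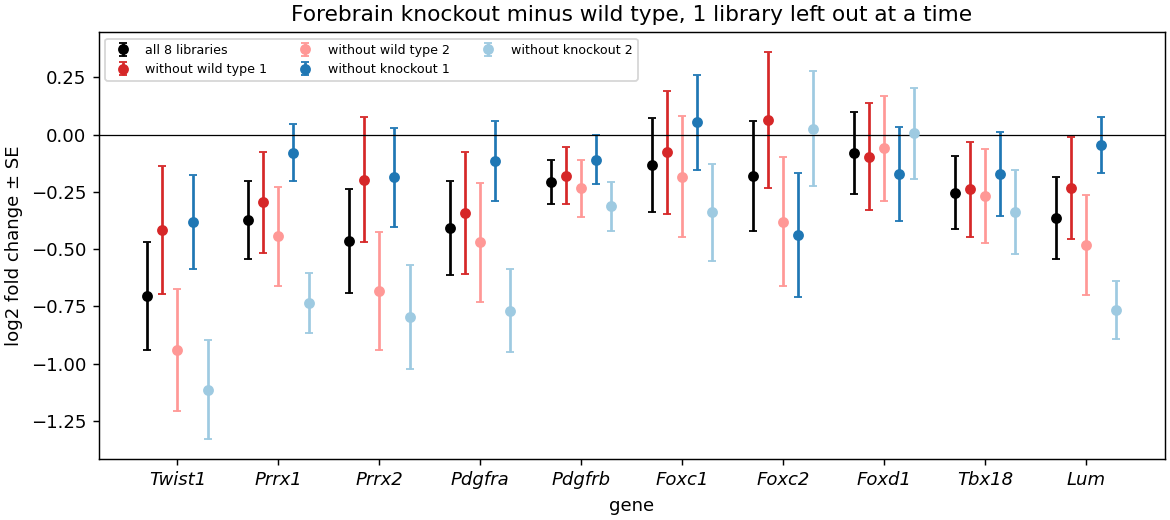
Log2 fold change of knockout over wild-type forebrain with its SE, from all 8 libraries (black) and with 1 forebrain library left out at a time. Leaving out knockout pool 1 moves most genes towards 0 (Prrx1 from -0.37 to -0.078), and leaving out knockout pool 2 moves them away from it (Prrx1 to -0.73).

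The difference between the knockout effects, midbrain minus forebrain, was tested directly. It was above 0 in 10 of 10 members, against 46.3% of all genes, with a median of 0.40 (0.16 without midbrain wild-type pool 1 and 0.81 without midbrain wild-type pool 2). In edgeR 0 of 10 passed, where 0.0065% of all genes did, and before adjustment 2 of 10 (Twist1 and Pdgfrb) were below 0.05, where 4.02% of all genes were. DESeq2 and limma-voom called 0 members. Twist1 had 0.88 (SE 0.366), Prrx1 0.54 (SE 0.270) and Pdgfrb 0.34 (SE 0.140), each with an edgeR adjusted p of 0.996. Prrx1 passed at 0.90 (0.0404) without forebrain knockout pool 2, and Twist1, Prrx1 and Pdgfra passed without a filter on low counts (0.89, 0.55 and 0.51). Read the other way round, this is also the test of whether the tissue difference was larger in wild-type than in knockout libraries, and with all libraries and the filter 0 members passed.

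Within each tissue, most members were lowest in the same pool. In wild-type midbrain, all 10 were higher in pool 2, with a median ratio of high to low pool of 1.63, while the median over 11925 genes with at least 5 CPM was 1.07. In knockout forebrain, 8 of 10 were higher in pool 2, and the median ratio was 1.45 against 1.09 over 11734 genes. The other groups were closer, with median ratios of 1.13 in knockout midbrain and 1.10 in wild-type forebrain. Midbrain wild-type pool 1 was the lowest of its tissue for 9 of 10 members, and Pdgfrb and Lum were the members least reduced in it. Forebrain knockout pool 1 was lowest for 8 of 10, all but Foxc2 and Foxd1. Summed over the members, midbrain ran from 289.0 to 420.9 CPM, and forebrain from 404.4 to 665.3 CPM.

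**Figure D4:**
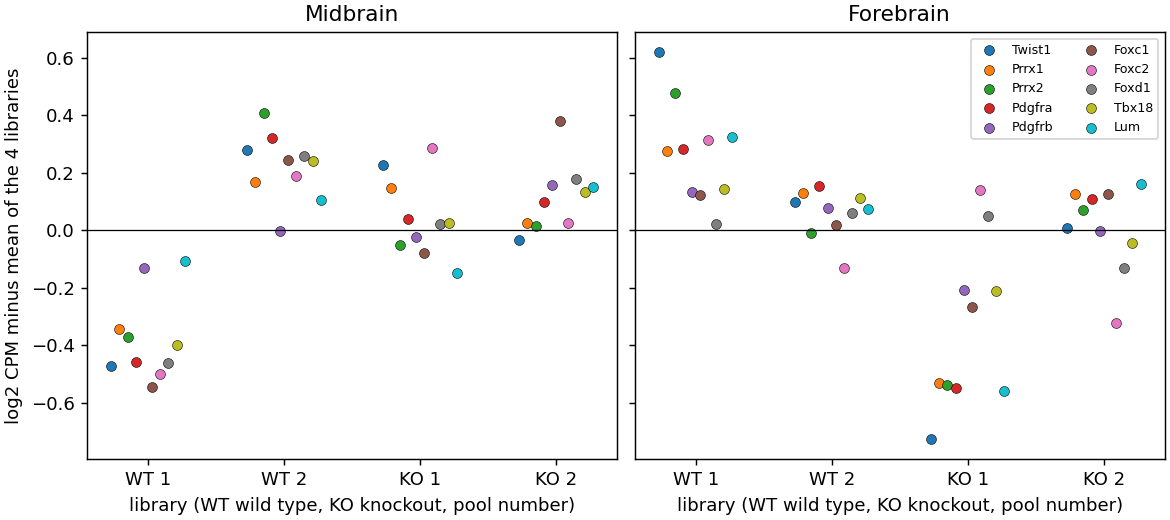
Log2 CPM of each gene minus its mean over the 4 libraries of the tissue. All 10 points lie below 0 in midbrain wild-type pool 1, and 8 of 10 in forebrain knockout pool 1, where Foxc2 and Foxd1 lie above it.

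The members were also set against Pdgfra within each library, a description chosen after their values were seen. Prrx1 counts per Pdgfra count were 0.391 to 0.471 in the 4 midbrain libraries and 0.999 to 1.03 in the 4 forebrain libraries. In forebrain the coefficient of variation of this ratio was 1.52%, while that of the Prrx1 level was 22.2%. This did not hold for all: in forebrain the ratio varied more than the level for 5 of 9 genes, as with Foxd1 (31.2% against 6.01%) and Foxc2 (37.5% against 19.4%), Pdgfrb, Tbx18 and Foxc1 being the others. In midbrain it did so for 2 of 9, Pdgfrb (18.7% against 8.41%) and Lum (18.9% against 10.4%). Twist1 had 0.302 to 0.377 in midbrain and 0.524 to 0.750 in forebrain, and Prrx2 had 0.151 to 0.171 and 0.256 to 0.327. Foxd1 had 0.513 to 0.566 in midbrain and 0.229 to 0.414 in forebrain, and Lum 0.902 to 1.34 and 0.666 to 0.731. For these 5 genes the ranges of the tissues did not overlap. The share of all genes whose ratio to Pdgfra separates the tissues was not computed, so this count is a description only. Pdgfra itself was called higher in wild-type forebrain, which enters every ratio. The ranges of Pdgfrb, Foxc1, Foxc2 and Tbx18 did overlap.

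**Figure D5:**
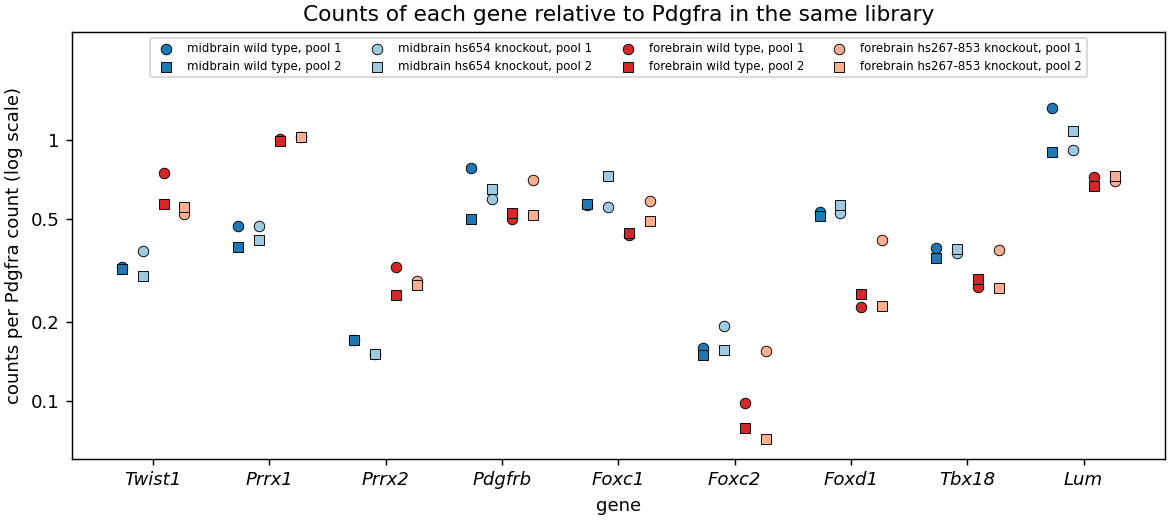
Counts of each gene per Pdgfra count in the same library, on a log axis. The 4 forebrain libraries (red) of Prrx1 lie at 0.999 to 1.03 and the 4 midbrain libraries (blue) at 0.391 to 0.471.

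Across the 8 libraries, after the mean of each tissue was taken off log2 CPM, 44 of 45 pairs of members had a positive Pearson's r, with a median of 0.777. These values share library and depth and are given as a description. Pdgfra followed the mean of the other members most closely (r = 0.967) and Foxc2 least (0.460), with Foxd1 next (0.612). The pair below 0 was Foxc2 with Lum, at -0.0069.

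Among 14311 other genes with a mean of at least 1 CPM, those with the highest r to the members' mean included Adgra2 (0.995), Ascc1 (0.987), Akap2 (0.986), Adgrg6 (0.981), Nid1 (0.980), Abca9 (0.976), Itgb5 (0.976), Emilin1 (0.975) and Spg20 (0.975), over 8 libraries. Nid1 encodes nidogen, a basement membrane linker, Emilin1 an elastic-fibre glycoprotein, and Itgb5 an integrin subunit. Adgra2, an adhesion receptor of brain endothelium and pericytes, measured 39.6 and 62.1 CPM in wild-type midbrain, 53.4 and 54.9 CPM in knockout midbrain, 78.6 and 66.2 CPM in wild-type forebrain and 52.1 and 65.0 CPM in knockout forebrain. Its lowest libraries were the same pools of each tissue as for most members, which follows from its having been picked by this r.

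Of 4 PDGF ligands, 2 were higher in wild-type forebrain and 0 lower, where 14.3% of all genes were called higher and 15.3% lower. Pdgfa, the main ligand of Pdgfra, was higher by 1.28 (SE 0.275, edgeR adjusted p = 0.00351) and Pdgfc, which also acts through it, by 0.77 (SE 0.165, edgeR adjusted p = 0.00354). Pdgfb, the endothelial ligand of Pdgfrb, had 0.35 and Pdgfd 0.28, and neither passed. In each knockout comparison 0 of 4 passed in edgeR, also at an unadjusted p under 0.05, with medians of 0.15 in midbrain and -0.12 in forebrain.

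Of 28 other transcription factors and cofactors of mesenchyme 24 were tested, and in wild-type forebrain 11 were higher and 7 lower, beside the same 14.3% and 15.3% of all genes. The frontonasal homeobox gene Alx1 was higher by 4.53 (SE 0.239, edgeR adjusted p = 2.18e-08). It stood at 29.1 and 27.0 CPM in wild-type forebrain and at 0.886 and 1.60 CPM in wild-type midbrain. Tbx15 and Six2 were higher by 2.94 (SE 0.235) and 2.76 (SE 0.235), with edgeR adjusted p of 9.65e-07 and 1.70e-06. The lower ones included Ebf3, at -2.65 and 1 of the most abundant of the list, which neurons also express. Osr1 and Tfap2b were also among the 7 lower, at -1.05 (SE 0.230) and -1.02 (SE 0.172), with edgeR adjusted p of 0.00410 and 0.000663. In knockout forebrain 0 of 24 passed, while 21 of 24 were below 0, against 47.4% of all genes. Before adjustment 10 were under 0.05, all below 0, against 1.8% of all genes.

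Of 18 matrix genes, 4 were higher in wild-type forebrain (among them Fbln2 at 1.01 and Col6a3 at 0.84) and 2 lower (Postn at -1.37 and Dcn at -0.90), beside 14.3% and 15.3% of all genes, with a median of 0.073. In knockout forebrain all 18 were below 0 (47.4% of all genes were) with a median of -0.28, and in knockout midbrain all 18 were above 0 (49.7% of all genes were) with a median of 0.15. In edgeR 0 of 18 passed in either. Before adjustment 3 were below 0.05 in forebrain, all with a negative value, against 1.8% of all genes. In midbrain 0 were, against 3.96% of all genes. The sum over the list was lowest in the pools named above, at 2017 CPM in midbrain wild-type pool 1 and 1699 CPM in forebrain knockout pool 1.

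Meningeal markers gave 4 higher and 2 lower of 10 tested in wild-type forebrain, with Col15a1 higher by 1.17 and Slc6a13 lower, at -1.46. Mural markers gave 1 higher (Tagln at 0.85) and 4 lower of 13, of which Vtn at -1.85, Rgs5 at -1.56 and Abcc9 at -1.17 had the largest changes. The shares of all genes were 14.3% higher and 15.3% lower for both lists. Of the 13 mural markers 6 lay above 0, among them Anpep at 0.46 and Kcnj8 at 0.033, which did not pass. In knockout forebrain 0 of 10 meningeal and 0 of 13 mural markers passed in edgeR. Before adjustment 1 meningeal marker was below 0.05, Bmp6, which was higher at 0.44. In both lists 0 markers were below 0.05 with a negative value, against 1.8% of all genes.

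Markers of other cell types that a dissection could hold moved with some of these values. Surface ectoderm genes summed to 9.27 to 11.8 CPM in midbrain and to 65.7 and 46.0 CPM in wild-type forebrain, and 7 of 8 were called higher in wild-type forebrain, against 14.3% of all genes. In knockout forebrain they summed to 13.2 CPM in pool 1 and 67.0 CPM in pool 2. Trp63, which defines stratified epithelium, was at 0 in forebrain knockout pool 1 and at 3.48 to 6.85 CPM in the other 3 forebrain libraries. Krt5 was at 0 in all 4 midbrain libraries, where 3 counts would be 0.190 to 0.328 CPM. Erythroid genes summed to 6631 CPM in midbrain wild-type pool 1 and to 3292 to 3732 CPM in the other midbrain libraries. In forebrain their range was 4065 to 4741 CPM. Endothelial sums ran from 270.9 to 338.4 CPM in midbrain, lowest in wild-type pool 1, and from 342.0 to 354.2 CPM in forebrain. Neural progenitor genes summed to 4179 CPM in forebrain knockout pool 1 and to 3675 to 3750 CPM in the other forebrain libraries. Neuronal genes were called lower in wild-type forebrain in 9 of 9 cases, against 15.3% of all genes, with a median of -0.90. Their sum was 3636 and 3495 CPM in wild-type midbrain, 3818 and 3964 CPM in knockout midbrain, 1984 and 1722 CPM in wild-type forebrain and 2221 and 1567 CPM in knockout forebrain, where it was highest in pool 1. Sox10, a marker of migrating neural crest and glial precursors, stood at 0.340 to 1.38 CPM in all 8 libraries. The part that the surrounding tissue taken with each pool had in the members' values was not tested.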

How the data were processed

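Raw counts per gene symbol were deposited by the authors, 1 table per library, with no normalization. STAR, HTSeq, DESeq2 and build mm10 are named in the submitters' processing notes, without versions or roles. Neither the gene annotation nor strandedness of counting is given in the sources used here, so antisense or overlapping transcripts cannot be told apart. Rows that name no gene were kept out of library sizes, and of counts in genes, no feature and ambiguous positions, no feature took 55.4% to 58.9%.

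Counts were tested with edgeR 4.0.16 in R 4.3.3: filterByExpr, TMM scaling, quasi-likelihood fits to group means over all 8 libraries, two-sided tests and Benjamini-Hochberg adjustment over 15383 genes with a threshold of 0.05. SEs were derived from the log2 fold changes and F statistics. Log2 CPM used a prior count of 2. The biological coefficient of variation was 7.62%, and pools of 1 group were distinct beyond counting noise (chi-square divided by its degrees of freedom, 3.75 to 7.74). Whether pools are independent collections is not stated beyond the pooling, so p-values measure the spread between these pools. Alternatives were other scalings and filters, DESeq2 1.42.0, limma-voom (limma 3.58.1), only the groups compared, leaving out each library, and a block for the replicate number. Floors cover counting error only.

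The members and lists were chosen with earlier results of these data known. All members are named. From each other list the called genes with the largest change were named (at most 4), or the most abundant, and some more for context after their values were seen. A few genes that this rule names are not reported here. Promoters are RefSeq's, GRCm38.p6.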

Additional observations from a re-analysis of the deposited data

How the results depend on the processing

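The call of Prrx1, Prrx2, Twist1 and Pdgfrb as higher in wild-type forebrain held under all 12 alternatives. DESeq2 did not call Pdgfra (0.80, adjusted p = 0.0923). Without a filter on low counts the knockout comparisons called 22 genes in midbrain and 161 in forebrain, 4 of them members, and the difference of effects 111 genes, 3 of them members; the cause was not tested. DESeq2 called 12 genes in forebrain and 4 for the difference, limma-voom 1 in forebrain, and the groups compared alone 1 in midbrain and 1 in forebrain. With 1 library left out, genes called ranged from 0 to 8 in knockout midbrain, 3 to 209 in knockout forebrain, 0 to 64 for the difference, 2816 to 3510 between wild-type tissues and 2810 to 4267 between knockout tissues. Members called ranged from 0 to 4 in knockout forebrain, 0 to 1 for the difference and 2 to 6 between knockout tissues. The members' median ranged from -0.13 to 0.50 in knockout midbrain, 0.30 to 0.83 between wild-type tissues, -0.039 to 0.29 between knockout tissues and 0.16 to 0.81 for the difference.

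Signs turned as follows with 1 library left out. In knockout midbrain Twist1 ranged from -0.17 to 0.58, Prrx1 from -0.075 to 0.43, Prrx2 from -0.42 to 0.35, Pdgfra from -0.25 to 0.52, Foxc1 from -0.079 to 0.70, Foxc2 from -0.016 to 0.67, Foxd1 from -0.16 to 0.56, Tbx18 from -0.16 to 0.48 and Lum from -0.15 to 0.16. In knockout forebrain Foxc1 ranged from -0.34 to 0.053, Foxc2 from -0.44 to 0.064 and Foxd1 from -0.17 to 0.0066. Between wild-type tissues Foxc2 ranged from -0.29 to 0.41 and Foxd1 from -0.63 to 0.10. Between knockout tissues Pdgfra ranged from -0.050 to 0.60, Foxc1 from -0.21 to 0.27, Tbx18 from -0.027 to 0.14 and Lum from -0.57 to 0.15. For the difference Foxd1 ranged from -0.078 to 0.64. In limma-voom Prrx2 was 0.0064 and Lum -0.00055 in knockout midbrain, and Foxc1 was -0.012 between knockout tissues with a mean of at least 50 counts.

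Same-numbered pools did not deviate together (r of -0.025 to 0.067 over genes), so the numbers give no pairing. With the replicate number as a block, 7 members were called between wild-type tissues, Foxc1 (0.47) and Tbx18 (0.46) being the added ones, 4501 genes in all; in forebrain knockouts 3 genes were called and 0 members.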
